A study of Homo sapiens with 6 samples.

Results

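Cytosolic ribosomal protein genes were examined in PC-9 lung adenocarcinoma cells with and without knockdown of the splicing factor RBM10. The genes were chosen by symbol alone: RPL or RPS followed by a number and at most one of the letters A, X or L, together with the stalk genes RPLP0, RPLP1 and RPLP2 and with RPSA, but without RPS27A, which encodes a fusion with ubiquitin. The rule found 80 of 26329 gene symbols, 49 of the large subunit (the stalk genes included) and 31 of the small subunit. A total of 78 of the 80 passed the filter on low counts. RPL3L and RPL10L, paralogs known for restricted tissue expression, did not: RPL10L was at 0 in every library and RPL3L was at most at 0.13 TPM.

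Every ribosome of the cytosol contains one copy of nearly each of these proteins (the stalk proteins RPLP1 and RPLP2 are present in more), and the genes are therefore read as a coordinated set. Their mRNAs are short and very abundant, and most are known to begin with a C followed by a run of pyrimidines, the 5′ terminal oligopyrimidine (TOP) tract, through which mTORC1 controls their translation. Some ribosomal proteins have further roles, such as RPL5 and RPL11, which bind MDM2 and stabilize p53 when ribosome assembly fails.

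PC-9 is an established human line with an activating EGFR mutation. RBM10 was knocked down with shRBM10#1 or with shRBM10#2, the control shRNA was shScr, and each of these 3 conditions had 2 libraries of total RNA from untreated cells in RPMI with 10% FBS. The labels call the control shScr, whereas the methods name parental cells, and it is called shScr here. Nothing states that the 2 libraries of a condition came from separate cultures, so p-values measure the spread between libraries, which may be technical.

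The libraries held between 31953729 and 37557507 expected counts. In every condition its 2 libraries lay further apart than counting error allows (chi-square per degree of freedom from 3.16 to 11.9 over genes). RBM10 itself was at 83.2 and 86.2 CPM (counts scaled by library size and TMM) with shScr, 59.8 and 56.4 with shRBM10#1, and 27.2 and 26.9 with shRBM10#2, so the second hairpin left less RBM10 mRNA. The log2 FC of RBM10 was −0.54 ± 0.067 (SE) with shRBM10#1 and −1.65 ± 0.070 with shRBM10#2. Epithelial keratins were abundant in all 6 libraries (KRT8 from 8355 to 10597 TPM), and of 8 leukocyte, endothelial and fibroblast markers the highest were COL1A1 (1.99 to 2.88 TPM) and PECAM1 (1.16 to 1.64 TPM), with the others at most at 0.75 TPM. The lung adenocarcinoma markers NKX2-1 and NAPSA were at most at 0.39 and 0.75 TPM in these cells.

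The sequence at the start of these genes is shown first because the TOP tract is what most of them share. RefSeq promoters (GRCh38.p14) were found for 63 of the 80 genes. A C at the annotated start base with at least 5 pyrimidines in a row from it was present in 45 of the 63 (71.4%), against 5.14% of the 27305 genes with a promoter and 9.09% of 66 mitochondrial ribosomal protein genes. The heptamer CTCTTTC, searched on the gene strand within 20 bases of the start, was present in 13 of the 63 (20.6%) and in 0.82% of all genes, whereas on the other strand it was present in 1.59% and 0.575%. The windows below run from 15 bases before the start to the 15th base from it, with the pyrimidine run that begins at the start base in capitals, and belong to genes whose counts are described in the following paragraphs.
RPS27 (chr1:153990747-153990776, plus strand): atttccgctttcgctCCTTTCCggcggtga
RPS24 (chr10:78033848-78033877, plus strand): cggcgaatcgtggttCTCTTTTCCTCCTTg
RPL36A (chrX:101390996-101391025, plus strand): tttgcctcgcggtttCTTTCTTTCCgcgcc
RPLP2 (chr11:809952-809981, plus strand): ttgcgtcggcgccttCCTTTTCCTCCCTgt
RPS9 (chr19:54200843-54200872, plus strand): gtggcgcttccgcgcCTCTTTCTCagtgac
RPL28 (chr19:55385917-55385946, plus strand): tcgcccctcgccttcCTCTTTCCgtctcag
RPL21 (chr13:27251543-27251572, plus strand): cggccccgcctctttCCTTTCggccggaac
RPS27L (chr15:63157463-63157492, minus strand): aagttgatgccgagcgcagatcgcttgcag
The first 4 genes were higher with shRBM10#2, the next 2 were lower, and RPL21 is described with its pseudogene. The pyrimidine run was present in 22 of 28 genes that rose with shRBM10#2 and had a promoter entry, in 6 of 6 that fell and in 17 of 29 others. CTCTTTC was present in 2 of 28, 4 of 6 and 7 of 29. The genes that fell include RPL21, whose direction turned when its pseudogene rows were added. Of all 8 genes called lower, 1 (RPS9) kept the call in every alternative that left out no single library. A link of the heptamer with direction was not tested. RPS27L, a p53-responsive paralog of RPS27, has no pyrimidine run at its annotated start. These matches describe letters in a window and are not mapped start sites of PC-9 mRNAs.

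Together the genes held 7.39% and 6.67% of the counts with shScr (replicates 1 and 2), 7.26% and 7.84% with shRBM10#1, and 7.74% and 7.97% with shRBM10#2. In TPM, which divides counts by effective transcript length and therefore weights these short mRNAs more, the shares were 27.2% and 23.2%, 26.4% and 27.4%, and 28.01% and 27.96%. Both shRBM10#2 libraries were above all shScr libraries on either scale. Those of shRBM10#1 overlapped the shScr libraries. In bulk RNA, more of these mRNAs per cell and less of all other mRNAs cannot be told apart.

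**Figure D1:**
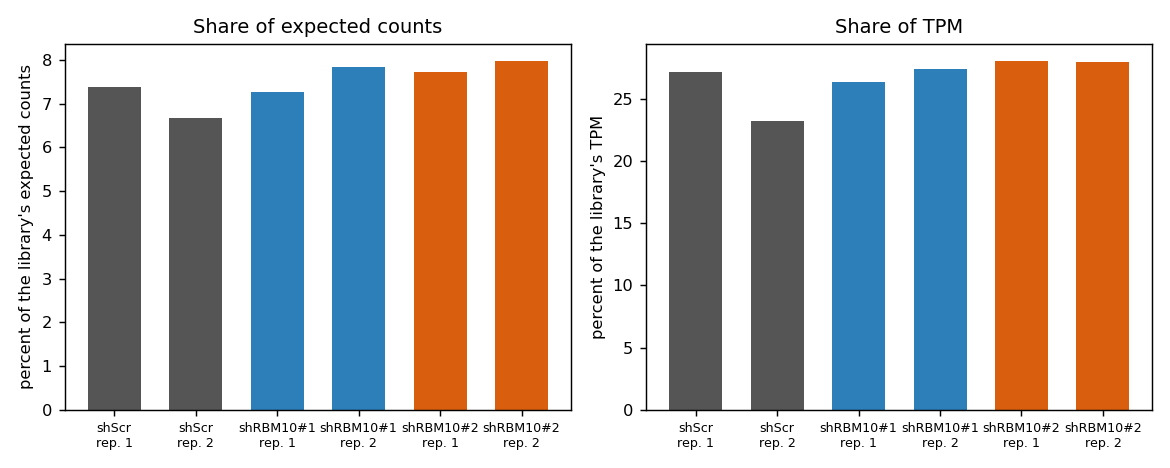
Percent of each library's expected counts (left) and TPM (right) held by the 80 cytosolic ribosomal protein genes, 1 bar per library, with shScr in gray, shRBM10#1 in blue and shRBM10#2 in orange. The lowest bar in both panels is shScr replicate 2 (6.67% of counts, 23.2% of TPM).

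shScr replicate 2 stood apart for these genes before any knockdown was considered. Of the 78 genes, 71 were lower in CPM in shScr replicate 2 than in replicate 1, with a median log2 difference of −0.15, whereas the median over all 14215 genes tested was 0.002. The genes also shifted together between the shRBM10#1 libraries, where 3 of 78 were lower in replicate 2 and the median was 0.12, and between the shRBM10#2 libraries (median 0.052). The 78 genes therefore move together from library to library and are not independent observations. The mean fragment length that effective lengths imply was 231 nt in shScr replicate 2 and 265 to 281 nt in the other libraries. In TPM the 29 genes with mRNAs shorter than 600 nt differed by a median log2 of −0.27 between the shScr libraries (28 of 29 lower), and the 49 longer ones by −0.037 (29 of 49 lower). In CPM both length classes were lower to a like degree (median log2 difference −0.15 and −0.16). Over all 14215 genes the CPM difference rose with transcript length (Spearman rho 0.35) and fell with GC content (−0.28 over 13777 genes). Among the ribosomal protein genes rho was 0.13 for length (78 genes) and −0.19 for GC content (76 genes). The part of fragment length in the count difference was not tested further, and results that rest on shScr replicate 2 are given with and without it.

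**Figure D2:**
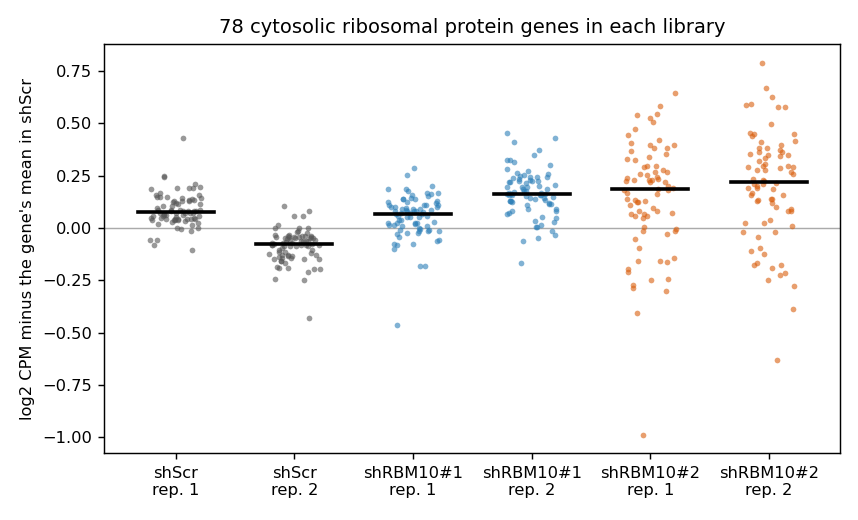
Each point is 1 of 78 ribosomal protein genes; the vertical axis is its log2 CPM minus its mean over the shScr libraries, and the black bars are medians. The medians are 0.077 and −0.077 for the shScr libraries, 0.068 and 0.16 for shRBM10#1, and 0.18 and 0.22 for shRBM10#2.

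On the TPM scale, which allows genes to be compared, the 78 genes had a median of 2681 and 2560 TPM with shScr, of 2686 and 2810 with shRBM10#1, and of 3038 and 3055 with shRBM10#2. RPS27 (a small subunit protein with a zinc finger), RPL37A and RPL39 had the highest mean levels. RPL37A was at 11606 and 8159 TPM with shScr, 10867 and 11515 with shRBM10#1, and 11985 and 11741 with shRBM10#2. RPL39, the protein at the end of the exit tunnel, was at 10433 and 7513, 9271 and 9868, and 11856 and 11330 TPM. RPS27 ranged most: 11231 and 5748 TPM with shScr, 9822 and 11538 with shRBM10#1, and 13843 and 14150 with shRBM10#2. RPS27, RPL37A and RPL39 changed order between libraries, and the spread between the shScr libraries was larger than the distance between them.

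At the other end, RPS27L was at 34.5 and 35.4 TPM with shScr, 36.3 and 38.8 with shRBM10#1, and 51.2 and 52.0 with shRBM10#2. RPL39L, a paralog of RPL39 known from testis and tumors, was at 78.3 and 81.5, 69.5 and 72.7, and 85.0 and 79.7 TPM. RPL27A was next, at 182 and 193, 169 and 192, and 235 and 238 TPM. These levels hold for the annotated transcripts the authors counted against, since a long annotated form lowers TPM for the same number of reads. Genes of the large subunit together held between 1.17 and 1.25 times the TPM of those of the small subunit, and the highest ratio was in shScr replicate 2.

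With shRBM10#1, 3 of 78 genes rose and none fell at an edgeR FDR below 0.05, against 14.1% of all genes tested called in either direction (7.14% higher and 6.92% lower). The 3 genes were RPL13, RPL13A and RPL4, all of the large subunit. RPL13 was at 1075 and 987 CPM with shScr, 1227 and 1386 with shRBM10#1, and 1172 and 1203 with shRBM10#2, and both knockdowns lay above shScr without overlap. Its log2 FC with shRBM10#1 was 0.34 ± 0.074 (SE, FDR = 0.0085). RPL4, which lines the exit tunnel, was at 1803 and 1707 CPM with shScr, 1996 and 2072 with shRBM10#1, and 1922 and 2005 with shRBM10#2. Its log2 FC was 0.21 ± 0.064 with shRBM10#1 (FDR = 0.043).

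The result for shRBM10#1 depends on single libraries. The median log2 FC of the 78 genes was 0.12 (0.0079 over all genes), 0.041 without shScr replicate 2 and 0.20 without shScr replicate 1. It was 0.16 without shRBM10#1 replicate 1 and 0.068 without its replicate 2. Without replicate 1 or 2 of shRBM10#2, which enters through scaling and the spread, it was 0.12 or 0.11. With an offset for transcript length 16 genes were called, against 17.8% of all genes. At an unadjusted p below 0.05 there were 18 of 78 genes (23.1%), against 28.5% of all genes. Among the small subunit genes edgeR called 0 of 31, and 6 had an unadjusted p below 0.05. DESeq2 called 4 of the 78, against 12.2% of all genes. In 30 genes both shRBM10#1 libraries lay above both shScr libraries and in 2 below, against 27.9% and 25.7% of all genes. No gene had a |log2 FC| above 1 with an FDR below 0.05, against 1.88% of all genes.

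With shRBM10#2, 40 of 78 genes passed the threshold, 32 higher and 8 lower, against 25.9% of all genes tested (12.0% higher and 13.9% lower). Genes of both subunits took part: 19 of 47 large subunit genes rose and 6 fell, and 13 of 31 small subunit genes rose and 2 fell. The changes were small. No gene passed the criterion of the methods, a |log2 FC| above 1 with an FDR below 0.05, which 1.30% of all genes met. The median log2 FC was 0.18 (0.0054 over all genes) and the genes ranged from −0.80 to 0.70. In 52 genes both shRBM10#2 libraries lay above both shScr libraries and in 13 below, against 33.6% and 33.0% of all genes.

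**Figure D3:**
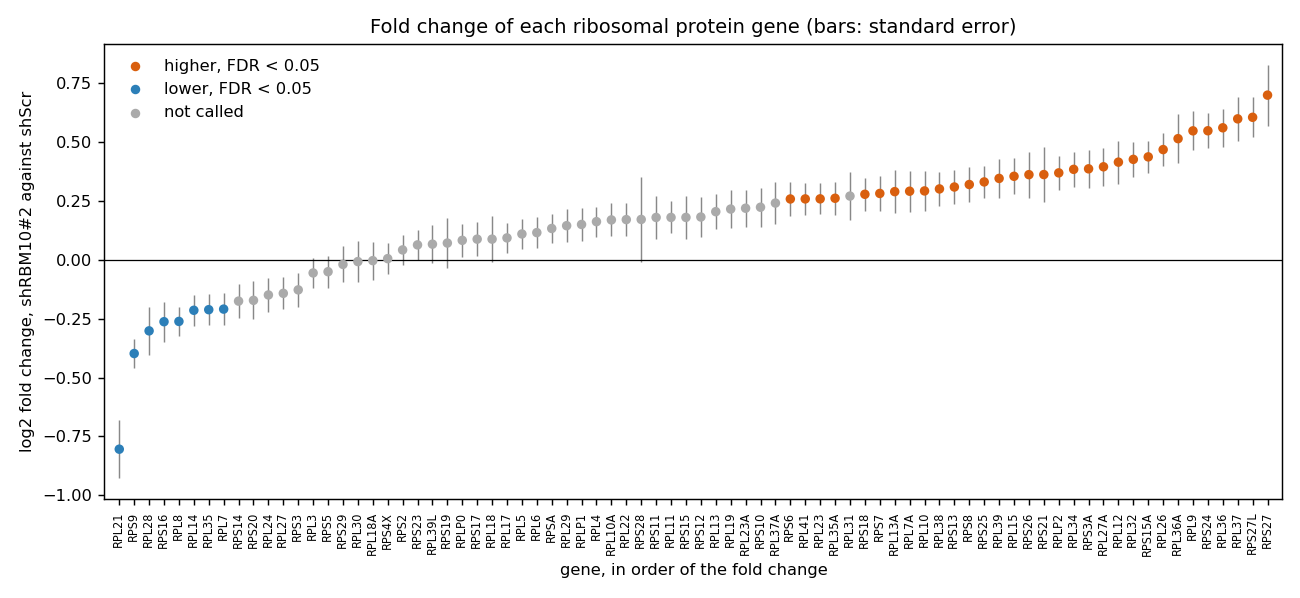
log2 fold change of each of the 78 genes with shRBM10#2 against shScr, in rank order, with bars of 1 standard error; orange and blue points have an edgeR FDR below 0.05 (32 higher, 8 lower) and gray points do not. The extremes are RPL21 at −0.80, which is 0.17 with its pseudogene rows added, and RPS27 at 0.70.

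RPS27 had the largest rise. It was at 591 and 423 CPM with shScr, 547 and 664 with shRBM10#1, and 782 and 865 with shRBM10#2. The shScr libraries differed by a log2 of −0.48 for this gene, and both shRBM10#2 libraries were above all others. The log2 FC with shRBM10#2 was 0.70 ± 0.13 (1.62-fold, FDR = 0.0025), 0.48 without shScr replicate 2 and 0.96 without shScr replicate 1. With shRBM10#1 it was 0.26 ± 0.13 (FDR = 0.21).

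RPS27L was at 19.5 and 18.3 CPM with shScr, 20.2 and 22.4 with shRBM10#1, and 28.3 and 29.2 with shRBM10#2. The replicates lay close to each other and shRBM10#2 stood above both other conditions. The log2 FC was 0.61 ± 0.085 with shRBM10#2 (1.52-fold, FDR = 0.00059) and 0.18 ± 0.086 with shRBM10#1 (FDR = 0.20).

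RPL37, a zinc finger protein of the large subunit, was at 763 and 614 CPM with shScr, 702 and 763 with shRBM10#1, and 997 and 1089 with shRBM10#2. Its libraries with shScr and shRBM10#1 overlapped and those of shRBM10#2 stood apart. The log2 FC was 0.60 ± 0.093 with shRBM10#2 (1.51-fold, FDR = 0.00096) and 0.090 ± 0.093 with shRBM10#1 (FDR = 0.57). RPL36A was at 496 and 379 CPM with shScr, 417 and 471 with shRBM10#1, and 602 and 648 with shRBM10#2. Here too shRBM10#2 alone stood apart, with a log2 FC of 0.51 ± 0.11 (1.43-fold, FDR = 0.0043), against 0.021 ± 0.11 with shRBM10#1 (FDR = 0.92).

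RPS24, whose mRNA is known to be spliced in several forms and which is mutated in Diamond-Blackfan anemia, was at 497 and 444 CPM with shScr, 491 and 531 with shRBM10#1, and 667 and 709 with shRBM10#2. The log2 FC was 0.55 ± 0.074 with shRBM10#2 (1.46-fold, FDR = 0.00047), and the libraries of shRBM10#2 did not overlap the others. RPS27, RPS27L, RPL37 and RPS24 kept an FDR below 0.05 with shRBM10#2 in each of the 20 alternatives run for them, left-out libraries included.

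Among the stalk genes, whose proteins recruit elongation factors, 1 of 3 was called. RPLP2 was at 456 and 413 CPM with shScr, 430 and 479 with shRBM10#1, and 571 and 552 with shRBM10#2, a log2 FC of 0.37 ± 0.074 (FDR = 0.0037) with the latter. RPLP0, a common reference gene in qRT-PCR, was at 2726 and 2439, 2724 and 2876, and 2704 and 2767 CPM, with a log2 FC of 0.083 ± 0.070 (FDR = 0.42). RPLP1 was at 1436 and 1335, 1363 and 1512, and 1551 and 1525 CPM, with a log2 FC of 0.15 ± 0.070 (FDR = 0.14). The RPLP0 values of the 3 conditions overlapped.

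Among the other genes fixed by role, RPS6 (the substrate of S6 kinase), RPL10 (which completes the large subunit and is mutated in T cell leukemia) and RPL41 (the shortest of the proteins) rose with shRBM10#2. Their log2 FCs were 0.26 ± 0.071 for RPS6 (FDR = 0.018), 0.29 ± 0.086 for RPL10 (FDR = 0.026) and 0.26 ± 0.068 for RPL41 (FDR = 0.015). RPSA, the laminin receptor precursor, had a log2 FC of 0.13 ± 0.062 (FDR = 0.13), RPL22 0.17 ± 0.070 (FDR = 0.092), RPL5 0.11 ± 0.064 (FDR = 0.23) and RPL11 0.18 ± 0.068 (FDR = 0.068), and none of these was called. RPL37A (0.24 ± 0.087, FDR = 0.059) and RPL39L (0.067 ± 0.080, FDR = 0.59) were not called either. RPL39 (0.35 ± 0.083, FDR = 0.0099) and RPL27A (0.40 ± 0.080, FDR = 0.0040) were higher.

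**Figure D4:**
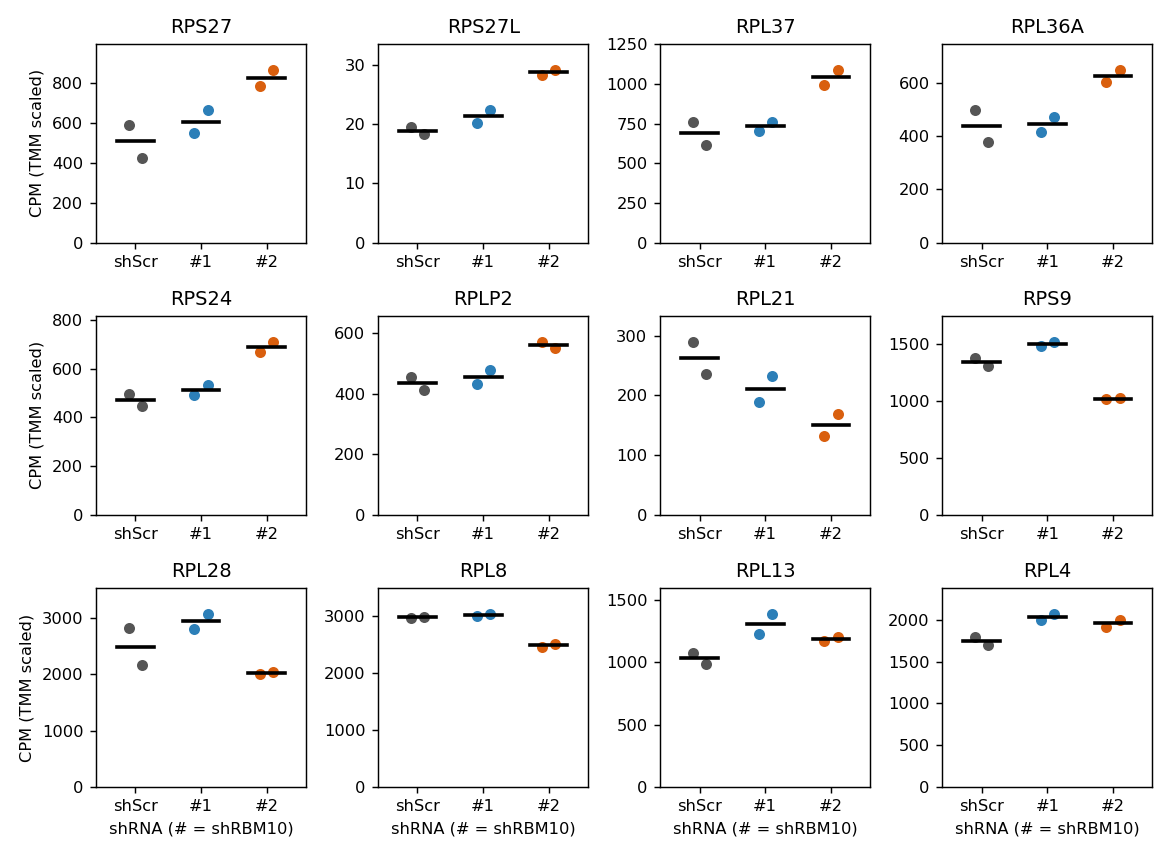
TMM-scaled CPM in each library (points) with condition means (lines) for 12 named genes; each vertical axis starts at 0. RPS27, RPS27L, RPL37, RPL36A, RPS24 and RPLP2 are highest with shRBM10#2, RPS9, RPL28 and RPL8 are lowest there, and RPL13 and RPL4 lie above shScr with both shRNAs.

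The genes that fell included RPS9, RPL28 and RPL8. RPS9, an early assembling protein that binds the small subunit rRNA, was at 1376 and 1310 CPM with shScr, 1481 and 1518 with shRBM10#1, and 1013 and 1025 with shRBM10#2. The 3 conditions did not overlap, with shRBM10#1 above and shRBM10#2 below shScr. The log2 FC was −0.40 ± 0.062 with shRBM10#2 (0.759-fold, FDR = 0.00096) and 0.16 ± 0.062 with shRBM10#1 (FDR = 0.11).

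RPL28 was at 2826 and 2162 CPM with shScr, 2813 and 3074 with shRBM10#1, and 2007 and 2039 with shRBM10#2. The log2 FC was −0.30 ± 0.10 with shRBM10#2 (FDR = 0.043), −0.097 without shScr replicate 1 (FDR = 0.42) and −0.48 without shScr replicate 2, and it was 0.24 ± 0.10 with shRBM10#1 (FDR = 0.14). RPL8, which lies next to the peptidyl transferase center, was at 2969 and 2978 CPM with shScr, 3001 and 3029 with shRBM10#1, and 2459 and 2501 with shRBM10#2. Its log2 FC with shRBM10#2 was −0.26 ± 0.060 (FDR = 0.0079), and it was −0.14 and no longer called (FDR = 0.14) with an offset for GC content.

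RPL21 had the largest fall by its own row, and that fall did not hold once a pseudogene was counted with it. RPL21 was at 290 and 236 CPM with shScr, 190 and 233 with shRBM10#1, and 132 and 169 with shRBM10#2 (log2 FC −0.80 ± 0.12 with shRBM10#2, FDR = 0.00092, and −0.31 ± 0.12 with shRBM10#1, FDR = 0.11). Its processed pseudogene RPL21P28 was listed at 356 and 380, 335 and 344, and 564 and 555 CPM, that is, above the gene itself. With the pseudogene rows added, RPL21 was at 646 and 616 CPM with shScr, 525 and 576 with shRBM10#1, and 696 and 724 with shRBM10#2, and the log2 FC with shRBM10#2 was 0.17 ± 0.068 (FDR = 0.083). Between the shRNAs it turned from −0.49 ± 0.12 (FDR = 0.013) to 0.37 ± 0.068 (FDR = 0.0025).

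RPL13A showed the same dependence. It was at 865 and 749 CPM with shScr, 906 and 1101 with shRBM10#1, and 969 and 1004 with shRBM10#2, while its pseudogene RPL13AP5 was listed at 2760 and 2559, 3120 and 3181, and 2172 and 2280 CPM. By its own row RPL13A rose with shRBM10#1 (log2 FC 0.31 ± 0.092, FDR = 0.039) and with shRBM10#2 (0.29 ± 0.092, FDR = 0.036). With the pseudogene rows added the values were 0.26 ± 0.069 (FDR = 0.025) and −0.11 ± 0.069 (FDR = 0.27). The sign for RPL21 and RPL13A with shRBM10#2 therefore depends on whether the pseudogene rows are added, and where those reads come from was not tested. Of the 31 pseudogene rows among the files, those named after each of the other 17 genes with such rows held at most 1.67% of their gene's counts. With all pseudogene rows added, 38 of 78 genes were called with shRBM10#2 (31 higher, 7 lower), against 25.9% of all genes.

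Of the 32 genes called higher with shRBM10#2, 16 kept the call under each of a length offset, a GC offset, the replicate block and the loss of either shScr library. Of the 8 called lower, 2 did (RPL21 and RPS9). The addition of pseudogene rows is not among these settings, and with it the log2 FC of RPL21 was 0.17 and not called. Without shScr replicate 2 the median log2 FC was 0.11 (0.0086 over all genes), and without shScr replicate 1 it was 0.29 (0.0054 over all genes). Without shRBM10#2 replicate 1 there were 20 calls and without its replicate 2 there were 12, while the calls over all genes fell from 3687 to 1232 and 953. Without TMM scaling the split was 42 higher and 3 lower, against 26.1% of all genes called. Of the calls over all genes 58.4% were then higher, against 46.4% with TMM scaling. GC content went with these values as well, with a Spearman rho of −0.25 between a gene's GC and its log2 FC over the 76 genes with a GC value and −0.36 over 13777 genes, given as a description since genes of 1 library share its base composition. With the GC offset 34 genes were higher and 4 lower, against 19.0% of all genes called.

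The shRNAs were also compared with each other, in the same fit, where the shScr libraries enter through scaling and the spread. With shRBM10#2 against shRBM10#1, 31 of 78 genes were called (19 higher and 12 lower) against 25.5% of all genes (11.0% and 14.5%), with a median log2 FC of 0.095 (0.0069 over all genes). RPL37 (0.51 ± 0.093, FDR = 0.0023), RPL36A (0.49 ± 0.11, FDR = 0.0053) and RPS27 (0.44 ± 0.13, FDR = 0.024) were higher with shRBM10#2. RPS9 (−0.56 ± 0.062, FDR = 0.00016) and RPL28 (−0.54 ± 0.10, FDR = 0.0026) were lower. RPL13, RPL4 and, by its own row, RPL13A had log2 FCs of −0.14, −0.051 and −0.024 between the shRNAs and were not called. With its pseudogene rows added, RPL13A was called lower with shRBM10#2 than with shRBM10#1 (−0.37 ± 0.069, FDR = 0.0026). With the length offset the split was 18 higher and 19 lower (30.1% of all genes were called). The median was then −0.0060 (−0.0125 over all genes). With the GC offset 12 were higher and 10 lower (14.8% of all genes), and without TMM scaling 29 and 9 (26.5% of all genes). Without shRBM10#2 replicate 1 or 2, 8 or 5 genes were called (7.98% and 6.39% of all genes), and without either shScr library 36. RPS9 and RPL28 stayed lower and RPL37 and RPL36A higher under each of these scalings. In 39 genes both shRBM10#2 libraries lay above both shRBM10#1 libraries and in 21 below, against 32.9% and 32.1% of all genes. No gene had a |log2 FC| above 1 with an FDR below 0.05 (1.19% of all genes).

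When the 4 knockdown libraries were pooled against shScr, edgeR called 0 of 78 genes. Over all genes it called 1.62% (0.542% higher and 1.08% lower, and 0.394% with a |log2 FC| above 1). RBM10 itself was not called in this edgeR fit (log2 FC −0.99 ± 0.31, FDR = 0.15), so the 0 does not show that the genes were unchanged. DESeq2 and limma also called 0, against 5.05% and 0.915% of all genes. In edgeR 19 genes (24.4%) had an unadjusted p below 0.05, against 17.2% of all genes. With 1 coefficient per condition and the contrast of the mean of both shRNAs with shScr, 24 were called (23 higher), and 18.4% of all genes. The median log2 FC in the pooled fit was 0.17, and 0.087 without shScr replicate 2. The comparisons of each shRNA share the shScr libraries and are not independent.

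RBM10 is a splicing factor, so isoform usage was tested in the 32 genes with at least 2 isoforms past the filter. None passed the threshold with shRBM10#1. There were 0 of 32 by edgeR's diffSpliceDGE (0.250% of all genes called) and by limma (12 of 6405 over all genes), and 4 with an unadjusted p below 0.05 in edgeR. With shRBM10#2, 2 of 32 did, RPS10 and RPL8, against 1.90% of all genes. The isoform NM_001203245 of RPS10 took 4.94% and 5.56% of the gene's transcripts with shScr, 3.76% and 2.93% with shRBM10#1, and 2.73% and 2.65% with shRBM10#2 (gene FDR = 0.019). It fell as a share while the gene as a whole had a log2 FC of 0.22 ± 0.084 (FDR = 0.067).

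The isoform NM_033301 of RPL8 took 5.37% and 5.52% with shScr, 4.62% and 3.98% with shRBM10#1, and 3.89% and 3.67% with shRBM10#2 (gene FDR = 0.026). Both are minor forms, and the shRBM10#2 libraries lay below both shScr libraries. With the replicate block neither gene was called. With isoforms under 5% of their gene's mean counts left out, each gene kept only its main form, so neither could be tested. By limma 9 genes were called, and 411 of 6405 over all genes. Between the shRNAs edgeR called 0 of 32 (1.22% of all genes) and limma 3 (240 of 6405 over all genes). In edgeR 7 genes had an unadjusted p below 0.05.

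Larger shifts in share missed the threshold. The RPS3 isoform NM_001005 took 28.97% and 23.8% with shScr, 26.4% and 27.6% with shRBM10#1, and 43.8% and 41.0% with shRBM10#2 (gene FDR = 0.052 with shRBM10#2 and 0.096 between the shRNAs). RPS3, a DNA repair protein as well as a ribosomal one, was at 2796 and 2478 CPM with shScr, 2840 and 3071 with shRBM10#1, and 2384 and 2443 with shRBM10#2. Its total was lower with shRBM10#2 than with shRBM10#1 (log2 FC −0.29 ± 0.073, FDR = 0.012) and not called against shScr (−0.13 ± 0.073, FDR = 0.22). In RPL28, chosen after its values were seen, the isoform NM_001136135 took 67.7% and 63.3% with shScr, 67.7% and 67.4% with shRBM10#1, and 55.1% and 57.2% with shRBM10#2 (gene FDR = 0.073). Simulated counts for this comparison changed 1 isoform in each of 200 genes with at least 2000 mean counts. Changes of log2 1 were recovered in 15% of these genes and those of log2 2 in 58.5%. The changed isoforms held a larger share of their gene than the minor forms of RPS10 and RPL8. Those forms had a log2 FC relative to their gene of −0.93 and −0.52 with shRBM10#2. The recovery therefore does not show which shifts were detectable in the ribosomal protein genes.

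**Figure D5:**
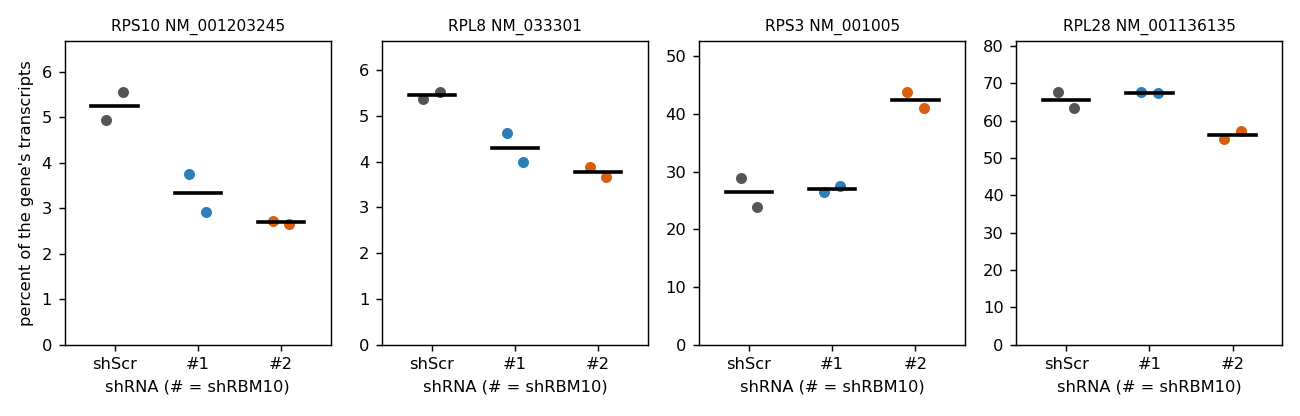
Percent of the gene's transcripts given by 1 isoform each of RPS10, RPL8, RPS3 and RPL28 in each library (points) with condition means (lines); axes start at 0. The shRBM10#2 libraries lie below shScr for RPS10, RPL8 and RPL28 and above for RPS3 (43.8% and 41.0%).

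Other genes of the ribosome and its supply line were read from lists, to be set against the shares over all genes of 14.1% called with shRBM10#1 and 25.9% with shRBM10#2. Of 77 mitochondrial ribosomal protein genes, 24 were called with shRBM10#2 (20 higher, 4 lower), with a median log2 FC of 0.097. With shRBM10#1, 9 were called (8 higher, 1 lower). In total these were 31.2% and 11.7%, near the shares over all genes. By direction the calls leaned higher with both shRNAs. Over all genes 12.0% were higher and 13.9% lower with shRBM10#2, and 7.14% and 6.92% with shRBM10#1. MRPL33 rose with shRBM10#2 from 34.4 and 30.1 CPM to 48.6 and 51.1 (log2 FC 0.63 ± 0.089, FDR = 0.00062). MRPS17 rose from 55.1 and 60.9 to 81.4 and 80.5 CPM (0.48 ± 0.071, FDR = 0.00075), and MRPL9 fell from 75.0 and 68.3 to 59.1 and 58.0 CPM (−0.29 ± 0.070, FDR = 0.010).

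Of 42 ribosome biogenesis genes, 14 were called with shRBM10#2 (6 higher, 8 lower; median 0.0085) and 3 with shRBM10#1 (2 higher, 1 lower), or 33.3% and 7.14%. TSR2, the chaperone that delivers RPS26, fell from 33.0 and 35.0 CPM with shScr to 25.0 and 23.5 with shRBM10#2 (−0.49 ± 0.076, FDR = 0.00096), and RPS26 itself was higher (0.36 ± 0.098, FDR = 0.017). GNL3, nucleostemin, rose (0.42 ± 0.079, FDR = 0.0026) and PES1, needed for large subunit processing, fell (−0.31 ± 0.072, FDR = 0.0077). GRWD1 also fell with shRBM10#2 (−0.28 ± 0.068, FDR = 0.011).

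Of 16 further mRNAs known for TOP tracts, 5 were called with shRBM10#2 (31.2%, 3 higher and 2 lower, median 0.049) and 0 with shRBM10#1, where 5 (31.2%, against 28.5% of all genes) had an unadjusted p below 0.05. EEF2, the translocation factor, fell from 2795 and 2936 to 2254 and 2393 CPM with shRBM10#2 (−0.30 ± 0.065, FDR = 0.0055), whereas EIF3E rose (0.37 ± 0.074, FDR = 0.0042). EIF4B fell with shRBM10#2 as well (−0.18 ± 0.063, FDR = 0.0499). Of 8 related genes outside the rule, 5 were called with shRBM10#2 (3 higher, 2 lower) and 0 with shRBM10#1, with 3 at an unadjusted p below 0.05. Among them the ubiquitin fusion gene RPS27A was at 920 and 799 CPM with shScr and 673 and 678 with shRBM10#2 (−0.35 ± 0.079, FDR = 0.0074), and RPL22L1, the paralog of RPL22, rose (0.59 ± 0.12, FDR = 0.0050). RPL7L1 fell with shRBM10#2 (−0.59 ± 0.094, FDR = 0.0010).

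Of 12 mTORC1 and MYC genes that control these mRNAs, 5 fell with shRBM10#2 and none rose (median −0.20), against 13.9% lower and 12.0% higher over all genes, and 1 fell with shRBM10#1. RPTOR, the mTORC1 scaffold, fell from 54.9 and 55.7 CPM to 35.4 and 38.4 (−0.58 ± 0.080, FDR = 0.00052), MTOR also fell (−0.40 ± 0.081, FDR = 0.0043), and so did the inhibitor TSC2 (−0.40 ± 0.067, FDR = 0.0014). RPS6KB2, an S6 kinase, fell with both shRNAs (−0.30 ± 0.069, FDR = 0.011, and −0.43 ± 0.069, FDR = 0.0011).

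Of 4 p53 axis genes, 2 were called with shRBM10#2. CDKN1A, a p53 target that stops the cell cycle, fell from 34.6 and 36.4 CPM with shScr to 16.3 and 21.2 with shRBM10#1 (−0.92 ± 0.11, FDR = 0.00022) and to 22.2 and 19.3 with shRBM10#2 (−0.77 ± 0.11, FDR = 0.00064). MDM2 was higher with shRBM10#2 (0.31 ± 0.092, FDR = 0.026) and had a log2 FC of 0.00013 with shRBM10#1.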

How the data were processed

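Transcriptomes of 6 PC-9 libraries were sequenced. Per the labels, the submitters' processing notes name STAR 2.4, RSEM 1.2.29, edgeR and hg19. The authors deposited, for 51398 RefSeq isoforms per library, the expected count (reads shared by isoforms are split, so values need not be whole), TPM, FPKM (not used here) and each isoform's percent of its gene. RNA selection, strand and read length are not given in the sources used here. Expected counts were summed per symbol, rounded and tested with edgeR 4.0.16 in R 4.3.3 (quasi-likelihood, TMM, filterByExpr, 1 coefficient per condition, all 6 libraries, Benjamini-Hochberg over 14215 genes). Isoform usage was tested with diffSpliceDGE over 6405 genes. DESeq2 1.42.0 and limma 3.58.1 served as alternatives. CPM is TMM scaled. SE is the fold change divided by the root of the F statistic. Tests were two-sided.

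Tested on simulated counts with 200 changed genes, a log2 FC of 0.5 was recovered in 71.5% for shRBM10#2 against shScr among 14080 genes and 66% for shRBM10#1 among 14068. Deviations of same-numbered libraries correlated at −0.064, −0.036 and −0.042, so the numbers were not taken as pairs. GC content comes from GENCODE 29 transcripts. The genes and lists were chosen with earlier results of these data known. Genes named are, by rule, the 3 largest rises and falls called per comparison, genes fixed by role or restricted expression, the 3 highest and lowest by TPM, the leading isoform usage genes, and at most 4 per list by the smallest FDR over the 3 comparisons. RPS26 was named besides for TSR2. MRPL57, IPO7 and RPL36AL, the last of the 4 in their lists, are not described. The offset for GC and the addition of pseudogene rows were chosen after the data were seen.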

Additional observations from a re-analysis of the deposited data

Results flagged for a closer look

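In 13 named genes the effects of the shRNAs differed by the direct test of shRBM10#2 against shRBM10#1 (edgeR FDR below 0.05, with the spread estimated over all 6 libraries). Higher with shRBM10#2 were RPL37 (log2 FC 0.51), RPL36A (0.49), RPS27 (0.44), RPS24 (0.43), RPS27L (0.43), RPL27A (0.35), RPLP2 (0.30) and RPL39 (0.29). Lower were RPS9 (−0.56), RPL28 (−0.54), RPL21 (−0.49, which turned to 0.37 with its pseudogene rows added), RPS3 (−0.29) and RPL8 (−0.28). RBM10 mRNA was lower with shRBM10#2 (27.2 and 26.9 CPM) than with shRBM10#1 (59.8 and 56.4 CPM), and its part in these differences was not tested. No library of a condition could be checked for outliers with 2 per condition.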

How the results depend on the processing

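Each percent in parentheses is the share of all genes tested that was called. With shRBM10#1 the 3 calls (14.1%) became 1 without TMM scaling (13.7%) and 13 without the low-count filter (13.5%). They became 16 with a length offset (17.8%), 0 by limma on log2(TPM + 1) (6.76%) and 1 with the 4 libraries compared alone (9.86%). The replicate block gave 1 (12.3%), and 11 together with the length offset (17.3%). With shRBM10#2 the 40 calls (25.9%) became 23 by limma (11.6%). Between the shRNAs 31 (25.5%) became 15 by limma (8.88%) and 17 with the GC offset and the replicate block (12.3%). The block gave 34 (22.6%) and 25 (22.3%) calls in these comparisons. The criterion of |log2 FC| above 1 left 0 calls in each comparison. The pooled comparison gave 24 (18.4%) in place of 0 (1.62%) with 1 coefficient per condition. Leaving out a library gave 0 to 19, 12 to 51 and 5 to 36 calls (shRBM10#1, shRBM10#2, between the shRNAs) and 0 pooled. The median log2 FC ranged from 0.041 to 0.20, 0.11 to 0.29, 0.022 to 0.15 and, pooled, 0.087 to 0.24. The share of all genes called also changed with the library left out. The range of calls alone therefore does not show a change particular to the ribosomal protein genes. Between the shRNAs the median was −0.0060 with the length offset and −0.0062 with the block as well. Isoform usage calls with shRBM10#2 (2, and 122 of 6405 over all genes) became 9 by limma (411 of 6405). They became 6 with at least 10 counts per isoform in every library (139 of 4929) and 0 with the block (61 of 6405). The 5% share gave 0 (95 of 4968), but RPS10 and RPL8 could not be tested there. Between the shRNAs limma gave 3 (240 of 6405). In each comparison the number of usage calls changed with the library left out.

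The shares of counts were 7.39%, 6.67%, 7.26%, 7.84%, 7.74% and 7.97% in place of 27.2%, 23.2%, 26.4%, 27.4%, 28.01% and 27.96% of TPM. Signs turned for RPL21 with pseudogene rows added (0.17 with shRBM10#2, 0.37 between the shRNAs), RPL13A with shRBM10#2 (−0.11 with those rows) and RPL39L (−0.0084 with the length offset, −0.0082 with the block too). RPL36A with shRBM10#1 was −0.025 by limma and −0.16 to 0.23 without a library, and RPL37 was −0.058 to 0.26. Between the shRNAs RPL13A was 0.033 without TMM scaling, 0.0028 with the GC offset (0.0043 with the block), 0.012 by limma and −0.16 to 0.12 without a library, and RPL4 was 0.0069 without TMM scaling. The cause of these changes was not tested. Alternatives for single genes cover only the fold changes printed in the text, a restriction set after the values were seen, as were the GC and pseudogene alternatives. The spread a median had to exceed to count as moved (the replicate SD of the genes' median log2 CPM, in place of the median SE) was also chosen after the values were seen. A condition left with 1 library is assumed to vary like the others. Over these, 918 values kept direction and side of the threshold, 96 lost the call, 50 gained it and 16 turned.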
